A study of Mus musculus with 14 samples.

Results

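The genes described here are 10 genes of MHC class I antigen presentation and of the immunoproteasome, taken by gene symbol from a table of 37680 genes: H2-K1, H2-D1 and B2m for the class I chains, Tap1, Tap2 and Tapbp for peptide transport and loading, Nlrc5 for their transactivator, and Psmb8, Psmb9 and Psmb10 for the immunoproteasome. The symbols carry 11 gene IDs, since Psmb9 has 2. Of the 10 genes, 9 had counts in every library and entered the tests of 15127 genes. Psmb9 had no count under either ID in any library.

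The study asked how the loss of Smad4, the shared mediator of TGF-β and BMP signaling, in the intestinal epithelium alters the response to dextran sulfate sodium (DSS), a polymer that injures the colon lining when it is given in drinking water. The counts come from poly(A) RNA sequencing of colon epithelium that was lifted off the mesenchyme with EDTA, in 14 libraries: 4 of wildtype (WT) mice on water, 4 of Smad4 knockout (KO) mice on water, 3 of WT mice after 3 days of 2.5% DSS, and 3 of KO mice after the same DSS. The KO is conditional: Villin-CreERT2, a Cre recombinase that the Villin promoter makes in intestinal epithelial cells and that tamoxifen switches on, deletes Smad4 f/f. The mice were between 8 and 14 weeks old, matched for age and sex, and had a C57/BL6 enriched background whose MHC haplotype is not given in the sources used here. The treatment scheme shows tamoxifen for the KO mice only, so that tamoxifen and genotype cannot be told apart. The labels do not tie libraries to animals, and the p-values measure the spread between these libraries.

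Class I molecules show peptides from inside the cell to CD8 T cells. The heavy chain, encoded in the mouse by H2-K1 and H2-D1, pairs with β2-microglobulin, encoded by B2m. Peptides are cut by the proteasome, carried into the endoplasmic reticulum by the transporter that Tap1 and Tap2 encode, and loaded with the help of tapasin, encoded by Tapbp. Interferon-γ acts in part through Irf1 and raises Nlrc5, which switches on the class I genes, and it replaces the catalytic proteasome subunits Psmb6, Psmb7 and Psmb5 by Psmb9, Psmb10 and Psmb8. Colon epithelial cells carry class I at rest and more of it in inflammation.

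The promoters of the 3 class I chain genes are shown because they share a layout that the other promoters of the set lack. RefSeq (build GRCm38.p6, whereas the counts use mm9) gave a promoter window, from 250 bases before the start to 50 after it, for 8 of the 10 genes, and none was held for Nlrc5 and Tap2. The 200 bases before the start follow for B2m (chr2:122147487-122147686, plus strand), H2-D1 (chr17:35262894-35263093, plus strand) and H2-K1 (chr17:34000348-34000547, minus strand, the first of 2 windows), 5′ to 3′, with capitals at every match to the letters searched.
B2m: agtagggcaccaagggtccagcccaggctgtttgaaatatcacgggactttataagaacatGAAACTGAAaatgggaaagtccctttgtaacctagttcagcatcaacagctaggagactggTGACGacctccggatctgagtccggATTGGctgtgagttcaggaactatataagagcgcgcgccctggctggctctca
H2-D1: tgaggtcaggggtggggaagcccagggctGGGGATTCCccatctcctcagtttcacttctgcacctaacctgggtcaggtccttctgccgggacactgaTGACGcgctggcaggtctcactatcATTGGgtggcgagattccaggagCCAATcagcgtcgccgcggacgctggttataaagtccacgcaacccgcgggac
H2-K1: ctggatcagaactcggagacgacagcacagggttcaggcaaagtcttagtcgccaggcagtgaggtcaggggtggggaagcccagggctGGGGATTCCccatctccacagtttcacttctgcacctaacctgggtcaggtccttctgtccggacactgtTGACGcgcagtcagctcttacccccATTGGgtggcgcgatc
Each of the 3 holds TGACG, the core of a cyclic AMP response element as in the X2 box, with its start 25 bases before the start of ATTGG, which is CCAAT, the Y box, on the other strand. That spacing was noticed in these windows and then counted: it is held by 18 of 32851 RefSeq windows (0.0548%), those of H2-M3, another class I heavy chain, among them. Besides H2-M3 and the 3 genes shown, the windows with this spacing are those of BC051142, Ghitm, Gm33299, Hspa14, Ibsp, Nfe2l1, Per1, Slc8a3, Trim26, Ubn1 and Xpnpep1. The spacing is thus not confined to class I genes. Searched on both strands, CCAAT alone is held by 33.8% of all windows and by 6 of the 8 genes, and TGACG alone by 17.8% of windows and by 5 of the 8 genes.

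H2-D1 and H2-K1 also hold GGGGATTCC, a match to the NF-kB letters GGGNNTTCC, which 4.98% of windows hold. B2m was the only 1 of the 8 genes with a match to GAAANNGAA, the core of the interferon stimulated response element (7.13% of windows). Psmb8 was the only 1 with TTCNNNGAA, the letters of the gamma activated site (7.02% of windows). Other forms of these elements were not searched. Both H2-D1 and H2-K1 hold agtttcacttct in their windows, which the letters searched do not match. The lack of a match in these 2 genes therefore does not show that an interferon element is absent. The windows of Psmb8 (chr17:34197995-34198194, plus strand) and Tap1 (chr17:34187356-34187555, plus strand) are shown for contrast, since Tap1 has TGACG without the spaced ATTGG and starts head to head with Psmb9.
Psmb8: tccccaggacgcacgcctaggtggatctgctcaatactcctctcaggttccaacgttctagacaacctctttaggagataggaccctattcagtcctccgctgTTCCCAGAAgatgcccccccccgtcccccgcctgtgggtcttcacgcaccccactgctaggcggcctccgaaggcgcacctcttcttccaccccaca
Tap1: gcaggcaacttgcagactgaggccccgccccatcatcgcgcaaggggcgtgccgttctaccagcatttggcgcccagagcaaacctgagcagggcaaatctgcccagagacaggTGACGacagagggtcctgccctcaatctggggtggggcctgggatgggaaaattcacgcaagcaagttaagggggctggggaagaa
Matches are letters in a window and were not tested as binding sites.

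Facts of the libraries bear on every value below. Total counts ran from 12882827 to 26087231, and the share of counts in mitochondrially encoded genes from 4.05% to 32.8%, with the highest shares in WT water replicates 3 (30.6%) and 4 (32.8%) and KO water replicate 4 (21.4%). The targeted gene, Smad4, had 2672 ± 371 normalized counts in WT water (SD, n = 4), 3517 ± 123 in WT DSS (n = 3) and 848 ± 35.9 in KO DSS (n = 3). In KO water, 1 library, labelled replicate 1, had 3164 normalized counts, within the range of WT water, and its values are given with this doubt. The figure legends of the paper give n = 3 for KO water, whereas the series holds 4 libraries of this group, all used here. Which of them the study used is not given in the sources used here. Summed markers of the epithelium (10 of 10 genes detected) lay between 322000 and 517110 normalized counts. Summed T and NK cell markers (12 genes) lay between 349 and 1308, myeloid markers (11 genes) between 1995 and 4361, fibroblast markers (6 genes) between 5.52 and 495, B cell markers (6 genes) between 13.8 and 170 and endothelial markers (7 genes) between 18.3 and 61.0. Endothelial Emcn was at 0 in every library. In bulk samples, fewer cells of a type and less RNA per cell cannot be told apart.

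In every group the class I chains were the most abundant of the set. On a scale of normalized counts per kilobase of exon, WT water had 19276 ± 2003 for B2m, 12009 ± 3700 for H2-D1 and 9373 ± 3143 for H2-K1 (SD, n = 4), and H2-D1 overlapped both of the others. Psmb10 (4535 ± 177), Tapbp (2256 ± 160) and Psmb8 (1274 ± 154) came next, and their ranges do not overlap each other. Tap1 (595 ± 86.1) and Tap2 (448 ± 114) overlapped, and Nlrc5, the regulator, was lowest at 70.2 ± 17.6. The order of the group means was the same in the other 3 groups, except that H2-K1 stood slightly above H2-D1 in KO water (10494 ± 3325 and 10229 ± 2365) and in KO DSS (9732 ± 2708 and 9722 ± 2313). H2-K1, H2-D1 and other H2 genes are close paralogs that may share reads, so that their separate levels are uncertain.

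**Figure D1:**
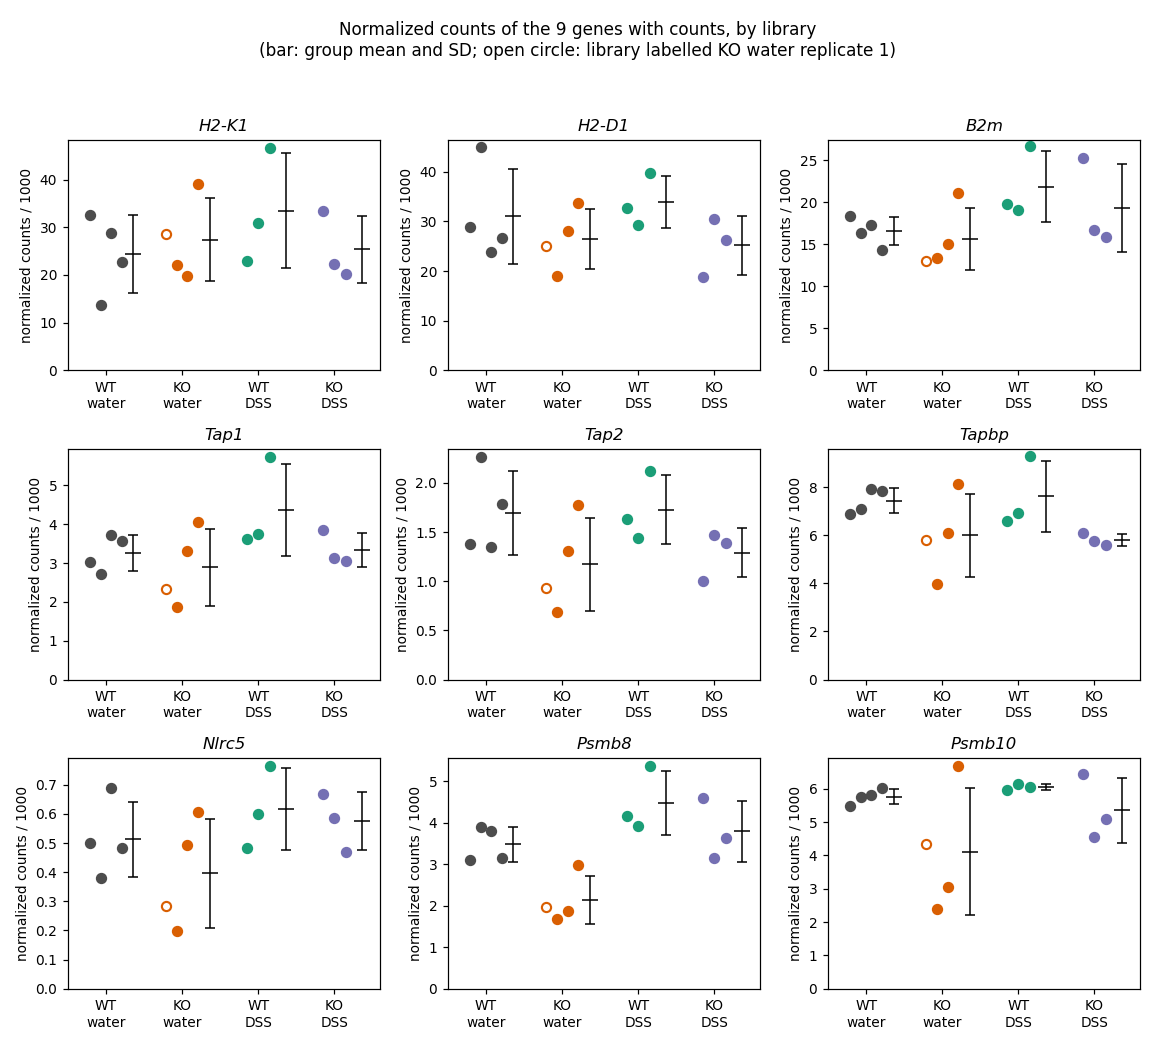
Normalized counts divided by 1000 (vertical axis, from 0) of the 9 genes with counts, 1 panel a gene, with 1 point a library in the 4 groups and the group mean and SD as a bar. For Psmb10 the KO water points reach from 2393 to 6691 and the WT DSS points from 5947 to 6137, and Psmb8 is the only gene whose KO water points all lie under the WT water points.

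Psmb8 (ENSMUSG00000024338, chr17:34334666-34338399 in mm9, plus strand) separated the groups most. It encodes the immunoproteasome subunit that replaces Psmb5 and cuts after hydrophobic residues. Its normalized counts in WT water were 3095, 3894, 3803 and 3149, and in KO water 1964, 1689, 1881 and 2977. After DSS they were 4164, 3932 and 5366 in WT and 4594, 3145 and 3636 in KO. Every KO water library thus lay below every WT water library, beside 5.2% of all genes in this direction. Each also lay below every DSS library, and how many of all genes do so was not counted. The library labelled KO water replicate 1, at 1964, lay with the other KO water libraries although its Smad4 did not.

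On water, Psmb8 fell in the KO by 0.71 on the log2 scale (SE 0.18; edgeR, adjusted p = 0.035). It was the only 1 of the 9 genes to pass the test, beside 8.44% of all genes. DESeq2 on the 2 groups gave an adjusted p of 0.022, beside 5.46% of all genes, and edgeR on the same 2 groups gave 0.15, beside 0.00686%. The call was lost (adjusted p 0.051 to 0.11) when WT water replicate 2, 3 or 4, KO water replicate 1, 2 or 3, or KO DSS replicate 3 was left out, with a change between -0.76 and -0.62. With the mitochondrial share as a covariate the change was -0.64 (adjusted p = 0.088), and with the letters that begin the library names as a term it was -0.65 (adjusted p = 0.064). Without the 3 libraries of highest mitochondrial share it was -0.92 (adjusted p = 0.0098), in a fit that called 15.9% of all genes.

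After DSS the same gene was higher than on water in both genotypes, and neither change passed the test. In the KO the change was 0.83 (SE 0.19; edgeR, adjusted p = 0.25; DESeq2, adjusted p = 0.069). In WT it was 0.36 (SE 0.19; edgeR, adjusted p = 0.29). The groups did not overlap in either genotype, which held for 4.6% of all genes in the KO and for 12.8% in WT. The difference of these responses, 0.47 (SE 0.28), did not pass the test (edgeR, adjusted p = 0.68).

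Psmb10 (ENSMUSG00000031897, chr8:108459628-108462292, minus strand), the other measured immunoproteasome subunit, was steady in WT and uneven in the KO. Its normalized counts were 5467, 5750, 5811 and 6011 in WT water and 5947, 6137 and 6066 in WT DSS. In KO water they were 4329, 2393, 3038 and 6691, and in KO DSS 6431, 4539 and 5102. KO water held both the lowest and the highest value of the series. The KO to WT difference on water was -0.49 (SE 0.23; edgeR, adjusted p = 0.18), and without KO water replicate 4 it was -0.81 (adjusted p = 0.0052), in a fit that called 27.3% of all genes. After DSS it was -0.18 (SE 0.27).

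The ratio of an immunoproteasome subunit to the subunit it replaces was taken within each library. The log2 ratio of Psmb8 to Psmb5 was 1.38 ± 0.51 in WT water (SD, n = 4), 0.68 ± 0.63 in KO water (n = 4), 1.41 ± 0.56 in WT DSS (n = 3) and 1.22 ± 0.25 in KO DSS (n = 3), and the 4 groups overlap. That of Psmb10 to Psmb7 was 1.52 ± 0.36, 1.02 ± 0.61, 1.33 ± 0.13 and 0.91 ± 0.056 in the same order. After DSS, the 3 KO libraries (0.84 to 0.94) lay below the 3 WT libraries (1.18 to 1.43), a difference of -0.42 with an exact two-sided permutation p of 0.1, the smallest that 3 against 3 can give. None of the 8 comparisons passed adjustment (exact permutation tests, lowest adjusted p = 0.53). With 4 against 3 libraries the smallest p is 0.057. A ratio of Psmb9 to Psmb6 could not be formed.

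**Figure D2:**
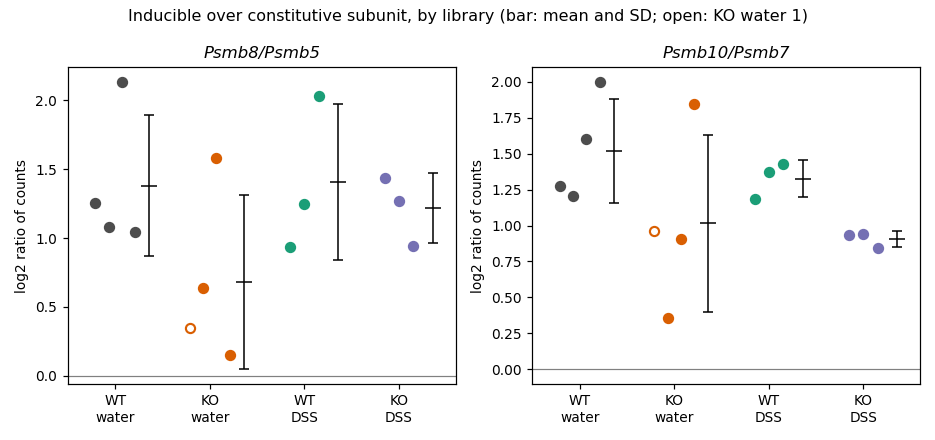
Log2 ratio of raw counts within a library (vertical axis) of Psmb8 to Psmb5 and of Psmb10 to Psmb7, with 1 point a library in the 4 groups and the group mean and SD as a bar. For Psmb10 to Psmb7 the KO DSS points (0.84 to 0.94) lie under the WT DSS points (1.18 to 1.43), and the KO water points spread from 0.35 to 1.84.

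Psmb9, the remaining immunoproteasome subunit, lies on the minus strand of chromosome 17 in mm9. Its first ID (ENSMUSG00000024337, 34318932 to 34324697) shares 99.97% of its exon bases with its second (ENSMUSG00000092299, 34318933 to 34324709). Whether reads that fall on 2 genes were kept is not given in the sources used here, and the 0 counts under both IDs say nothing about the transcript. Of the exon bases of its neighbour Tap1, 3.87% are shared with the second Psmb9 ID.

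Among the class I chains, B2m (ENSMUSG00000060802, chr2:121973422-121978819, plus strand) had normalized counts of 18314, 16388, 17328 and 14279 in WT water and 19798, 19017 and 26664 in WT DSS, and these groups do not overlap, as for 12.8% of all genes in this direction. It had 13045, 13344, 15046 and 21054 in KO water and 25291, 16690 and 15853 in KO DSS. The DSS difference was 0.40 in WT (SE 0.21; edgeR, adjusted p = 0.29) and 0.30 in KO (SE 0.21; adjusted p = 0.74), and neither passed.

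H2-K1 (ENSMUSG00000061232, chr17:34132962-34137278, minus strand) had 32489, 13708, 28789 and 22792 normalized counts in WT water and 28584, 22091, 19705 and 39095 in KO water. After DSS it had 22860, 30910 and 46664 in WT and 33444, 22402 and 20296 in KO. All 4 groups overlap. H2-D1 (ENSMUSG00000073411, chr17:35399675-35404444, plus strand) had 28864, 45097, 23759 and 26596 in WT water and 25006, 19049, 28124 and 33712 in KO water. After DSS it had 32733, 29342 and 39696 in WT and 18728, 30566 and 26189 in KO. The library with the least H2-K1 of the series, WT water replicate 2, was the one with the most H2-D1.

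That opposition went beyond 1 library. The log2 ratio of H2-K1 to H2-D1 counts was below 0 in 6 libraries, from -1.72 in WT water replicate 2 to -0.22 in WT water replicate 4, and above 0 in the other 8, from 0.075 in WT DSS replicate 2 to 0.84 in KO DSS replicate 1. A paralog on chromosome 17, H2-Q2 (ENSMUSG00000079507, 1 of its 2 IDs), was looked at beside it after these values were seen. It had 1080 to 3739 normalized counts in the 6 libraries below 0 and 226 to 473 in the 8 above 0. The other H2-Q2 ID did not split the libraries in this way. It had 2353 to 3031 in the 6 and 1813 to 2992 in the 8, and these ranges overlap. The 6 libraries were 2 of WT water, 1 of KO water, 1 of WT DSS and 2 of KO DSS, so that the split ran through every group. Its source was not tested, and the part of it in the group differences of H2-K1 and H2-D1 was not tested either.

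**Figure D3:**
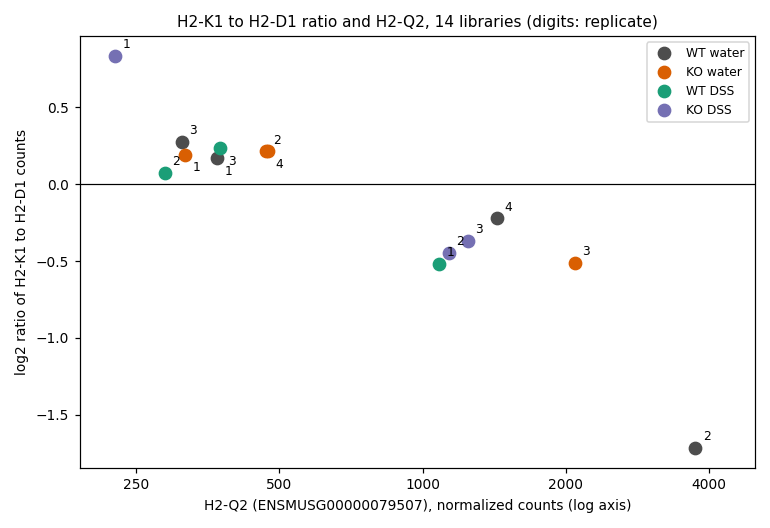
Log2 ratio of H2-K1 to H2-D1 counts (vertical axis) against the normalized counts of H2-Q2 (ENSMUSG00000079507, horizontal log axis), with 1 point a library, coloured by group and numbered by replicate. The 6 libraries with more than 1000 counts of H2-Q2 all lie below 0, and the 8 others above 0.

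In peptide transport and loading, Tapbp (ENSMUSG00000024308, chr17:34052844-34066235, plus strand) was the only gene of the set whose KO DSS libraries all lay below the WT DSS libraries. Its normalized counts were 6598, 6938 and 9314 in WT DSS and 6075, 5761 and 5578 in KO DSS. Groups that do not overlap in this direction were found for 11.4% of all genes. On water, Tapbp had 6878, 7110, 7923 and 7854 in WT and 5795, 3952, 6084 and 8130 in KO. KO water replicate 4, at 8130, stood above all WT water libraries, whereas the other 3 stood below them.

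Tap1 (ENSMUSG00000037321, chr17:34324498-34334170, plus strand) ranged from 2715 to 3718 normalized counts in WT water, from 1860 to 4062 in KO water, from 3610 to 5744 in WT DSS and from 3059 to 3853 in KO DSS. Tap2 (ENSMUSG00000024339, chr17:34340472-34353266, plus strand) ranged from 1346 to 2265, from 690 to 1770, from 1436 to 2121 and from 1005 to 1473 in the same order. Both transporter genes thus overlapped between all groups. Tap2 and Psmb8 share exon bases with Gm20496, an antisense gene (4.36% and 6.83% of their exon bases), and whether counting used strand is not given in the sources used here. Nlrc5 (ENSMUSG00000074151, chr8:96996663-97051172, plus strand) ranged from 378 to 688 in WT water, from 198 to 607 in KO water, from 484 to 763 in WT DSS and from 470 to 667 in KO DSS. Its lowest 2 values were those of KO water replicates 2 (198) and 1 (285).

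**Figure D4:**
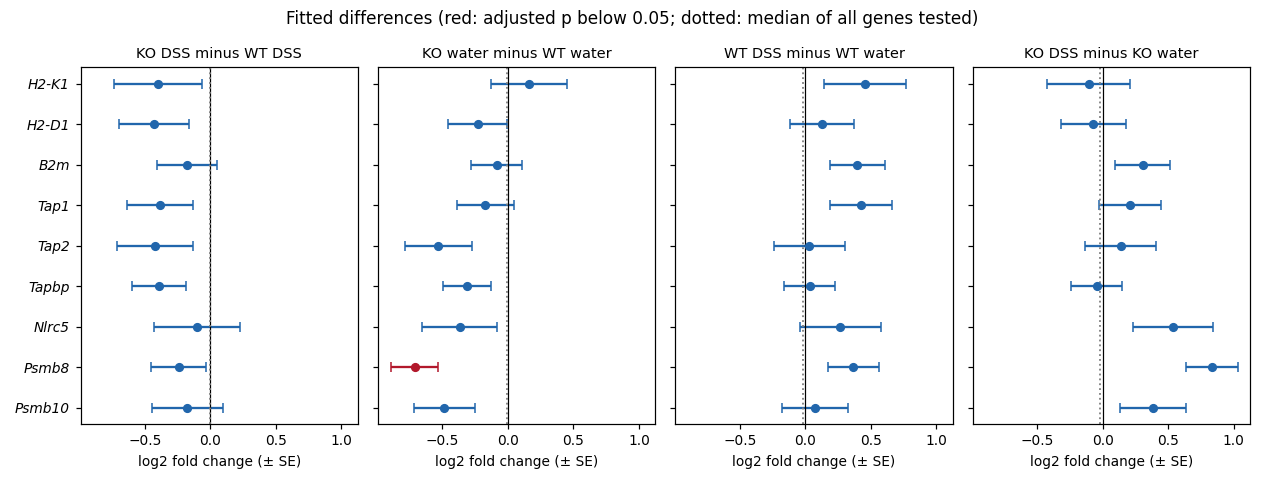
Log2 fold change with its SE (horizontal axis) of the 9 genes in the 4 comparisons of 2 groups, from 1 edgeR model of all libraries, with the median of all genes tested as a dotted line. All 9 genes lie below 0 for KO DSS minus WT DSS and above 0 for WT DSS minus WT water, and only Psmb8 on water passed the test.

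Between KO and WT after DSS, all 9 genes had lower values in the KO, with a median log2 difference of -0.39 and a range from -0.43 (H2-D1, SE 0.26) to -0.10 (Nlrc5, SE 0.33). Over all genes tested the median was -0.0006, with 7573 of 15127 lower. None of the 9 passed the test of edgeR in the model of all libraries (adjusted p = 1.00), where 0.0132% of all genes did, and none of the 9 had an unadjusted p under 0.05, beside 4.43% of all genes. None passed in edgeR on the 2 groups (0.801% of all genes did) or in DESeq2 (3.45%). At an unadjusted p under 0.05 were 3 of the 9 in that edgeR fit, beside 15.7% of all genes, and 4 of the 9 in DESeq2, beside 14.5%. The lowest adjusted p was that of Tapbp in DESeq2, 0.10, for a difference of -0.39 (SE 0.14). Without WT DSS replicate 3, which leaves libraries of 1 name prefix, D, on both sides, 8 of the 9 differences were below 0 and that of Nlrc5 was 0.084. Several then came close to 0: B2m was at -0.0094 and not -0.18, H2-K1 at -0.083 and not -0.40, and Tap1 at -0.14 and not -0.39. Without KO DSS replicate 1, B2m was at -0.42 and H2-K1 at -0.65. WT DSS replicate 3 was the highest of its group in 8 of the 9 genes. Summed fibroblast markers were 144 to 260 in KO DSS and 5.52 to 37.9 in WT DSS, with Col1a1, Col1a2 and Col3a1 called higher in the KO by DESeq2 and by edgeR on the 2 groups, and Krt20, a keratin of mature surface cells, called lower by both. Of the 10 epithelial markers, 9 were lower in KO DSS (median -0.11), 5 of them with no overlap of the groups, beside 11.4% of all genes in this direction. The sum of the 10 was 409780 to 462140 in KO DSS and 449000 to 469080 in WT DSS. Of the 9 myeloid markers tested, 7 were lower in KO DSS and 2 higher (median -0.25). Of the 12 T and NK cell markers, 7 were lower and 5 higher (median -0.08). The part of these markers in the values of the 9 genes was not tested.

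Between KO and WT on water, 8 of the 9 genes had lower values in the KO, with a median of -0.31 beside -0.0067 for all genes, where 7643 of 15127 were lower. After Psmb8, the largest differences were -0.53 for Tap2 (SE 0.25), -0.49 for Psmb10 and -0.37 for Nlrc5 (SE 0.29), and H2-K1 was the exception at 0.16 (SE 0.29). Psmb8 alone did not overlap between the groups, beside 5.2% of all genes in this direction. KO water replicate 4 was the highest of its group in all 9 genes. It also had the highest sums of T and NK cell, B cell, endothelial and fibroblast markers in the series (1308, 170, 61.0 and 495), and their part in the result was not tested. Without it, 4 of the 9 genes passed the test (Psmb8, Psmb10, Tap2 and Tapbp; edgeR adjusted p 0.0023 to 0.041), all lower in the KO, in a fit that called 27.3% of all genes. Without the library labelled KO water replicate 1, none passed, beside 7.66% of all genes, and the Psmb8 difference was -0.68 (adjusted p = 0.056). Of the 10 epithelial markers, 8 were lower in KO water (median -0.23), and their sum was 322000 to 430890 in KO water and 361800 to 517110 in WT water. Their part in the result was not tested.

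From water to DSS in WT, all 9 genes had higher values, with a median of 0.27 beside -0.014 for all genes, where 7357 of 15127 were higher. The differences ran from 0.03 for Tap2 (SE 0.27) to 0.45 for H2-K1 (SE 0.31). None passed in edgeR, where 0% of all genes did, with none of the 9 at an unadjusted p under 0.05, beside 21% of all genes. None passed in DESeq2, where 12.4% of all genes did, with 3 of the 9 (B2m, Psmb8 and Tap1) at an unadjusted p under 0.05, beside 27.5% of all genes. B2m and Psmb8 were the 2 genes whose groups did not overlap, beside 12.8% of all genes in this direction. Summed myeloid markers were 3532 to 4361 in WT DSS and 1995 to 3887 in WT water. Of the 9 myeloid markers tested, 7 were higher in WT DSS and 2 lower. Of the 12 T and NK cell markers, 9 were higher and 3 lower (median 0.39). Summed B cell markers went the other way, at 13.8 to 18.3 in WT DSS and 18.6 to 75.0 in WT water. The part of these markers in the values of the 9 genes was not tested. Without WT DSS replicate 3, 6 of the 9 genes were higher, and Tap2, Tapbp and H2-D1 were not.

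From water to DSS in the KO, 6 of the 9 genes had higher values, with a median of 0.21 beside -0.022 for all genes. The names of all KO DSS libraries begin with D, and that of no KO water library does. Within the KO, DSS and name prefix therefore cannot be told apart. This holds for the Psmb8 change in the KO and for the KO part of the difference of responses as well. After Psmb8 came Nlrc5 at 0.54 (SE 0.31) and Psmb10 at 0.38 (SE 0.25). Without KO water replicate 4 these were 0.81 and 0.72, and without KO water replicate 2 they were 0.32 and 0.19. By contrast, H2-K1, H2-D1 and Tapbp lay between -0.11 and -0.045. None passed in edgeR (0.0661% of all genes did) or in DESeq2 (0.486%), and Psmb8 alone had an unadjusted p under 0.05 in edgeR, beside 8.4% of all genes. Without KO water replicate 4 the Psmb8 difference was 1.04 (edgeR, adjusted p = 0.036, beside 0.0598% of all genes called), and all 9 genes were higher. The difference of the DSS responses, KO minus WT, ran from -0.56 for H2-K1 (SE 0.45) to 0.47 for Psmb8, with 5 of the 9 below 0, and none passed in edgeR (0.00661% of all genes) or in DESeq2 (0.0529%). None had an unadjusted p under 0.05 in either, beside 7.5% and 8.65% of all genes. These comparisons share groups, and the values of 1 gene in several of them are not independent.

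Other genes of the pathway were read in 8 lists. After DSS in the edgeR model of all libraries, the 11 other 20S subunits, which form the rest of the proteasome core, all had higher values in the KO than in WT (median 0.20), opposite to the 9 genes described here, and none passed edgeR or DESeq2. The KO value was also higher for 15 of 21 subunits of the 19S cap (median 0.11), 2 of 3 constitutive catalytic subunits (0.16) and 6 of 10 genes of PA28 and proteasome assembly (0.023), of which none passed. Psmb5, Psmb6 and Psmb7, the constitutive counterparts, differed by -0.07, 0.16 and 0.24. Of the 13 other class I heavy chain IDs tested, 9 were lower in the KO (median -0.25). H2-T23, the nonclassical chain that NK cell receptors read, fell in DESeq2 (-0.77, SE 0.17, adjusted p = 6.4e-04) and not in edgeR, whereas H2-M3 (-0.19) and the lipid-presenting Cd1d1 (-0.49) passed neither. Of 14 other loading and trimming genes 5 were lower, and Tapbpl, a peptide editor related to tapasin, fell in DESeq2 (-0.58, SE 0.16, adjusted p = 0.0096) and not in edgeR. Of 24 regulator IDs 13 were lower, and Stat2, a factor of type I interferon signaling, fell in DESeq2 (-0.46, SE 0.11, adjusted p = 0.0021) and in edgeR on the 2 groups (adjusted p = 0.048). Psme1 and Psme2, the PA28 activator that works with the immunoproteasome, differed by -0.25 and -0.07 and did not pass, nor did Irf1 (-0.14), Rfx5 (0.01), Socs1 (0.03) or the receptor chains Ifngr1 (0.11) and Ifngr2 (-0.26).

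**Figure D5:**
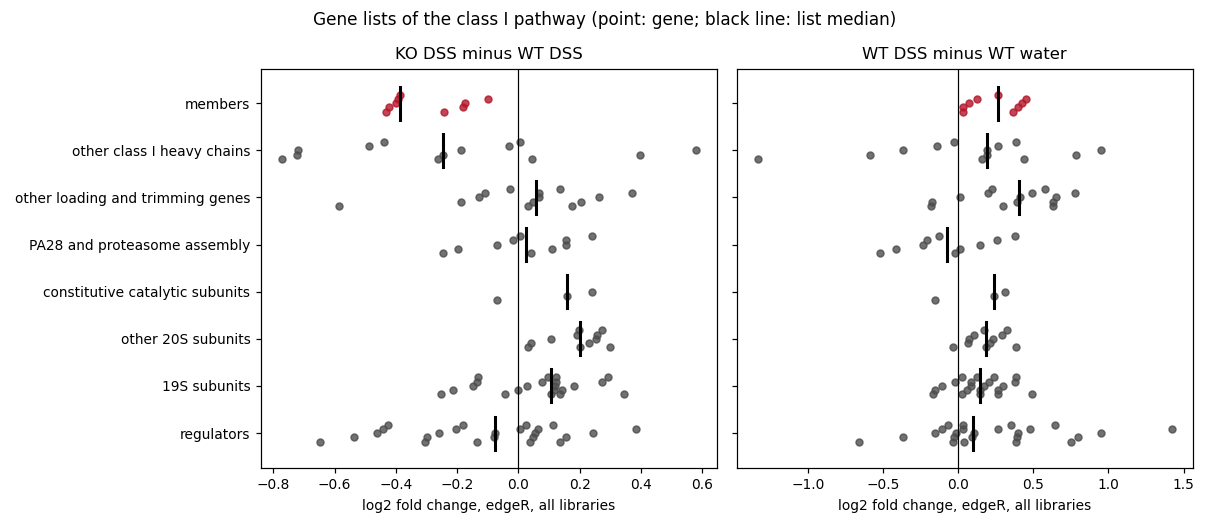
Log2 fold change (horizontal axis) of each gene in the set described here (red) and in 7 other lists of the pathway, with the list median as a black line, for KO DSS minus WT DSS and for WT DSS minus WT water. For KO DSS minus WT DSS the 9 genes lie between -0.43 and -0.10, and the 11 other 20S subunits between 0.03 and 0.30.

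In WT after DSS, several genes around the 9 passed DESeq2, though none passed edgeR in the model of all libraries. Irf1 rose by 0.39 (adjusted p = 0.049) and Socs1, a brake on interferon signaling, by 0.94 (adjusted p = 0.0043). Ciita, the class II counterpart of Nlrc5, rose by 1.42 (adjusted p = 0.0012) under 1 of its 2 IDs. Of the 14 loading and trimming genes 7 rose in DESeq2, beside 5.73% of all genes called higher, among them Calr (0.62), Pdia3 (0.41), Erap1 (0.48), which trims peptides in the endoplasmic reticulum, and Tapbpl (0.65). The others were Canx, Hspa5 and Lap3. Jak1, Jak2, Psme4, Psmd1, Psmd2 and the epithelial marker Vil1 rose as well, and Rfxap and Psmg3 fell (all DESeq2). This fit called 12.4% of all genes in either direction, beside which stand 2 of 21 genes of the 19S cap. On water, Erap1 (0.66, adjusted p = 0.024), Canx (0.59, adjusted p = 0.036), Psme4 (0.60, adjusted p = 0.036), Psmd1 (0.39, adjusted p = 0.040) and Psmd2 (0.41, adjusted p = 0.0499) rose in the KO in the edgeR model of all libraries. They are 2 of 14 loading and trimming genes, 1 of 10 of PA28 and assembly and 2 of 21 of the 19S cap. In this fit 8.44% of all genes were called, with 731 of 15127 higher. Of the marker genes, Car1 fell and Dcn and Col1a2 rose there in the same model. Ifng, the ligand, had 0 to 5 raw counts a library, and no gene of the interferon ligand list was tested.

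The 9 genes tended to be high or low in the same libraries. Over the 14 libraries, Pearson's r between 2 of the 9 genes on log2 CPM had a median of 0.64 over 36 pairs, with the highest value for Tap1 and Nlrc5 (0.92) and the lowest for H2-K1 and H2-D1 (-0.09). Among 11570 other genes with a mean of at least 50 normalized counts, the 10 most like the mean of the 9 were H2-DMa (r = 0.96), H2-Eb1 (0.94), Cd74 (0.92), Actb (0.89), Cgn (0.88), H2-T22 (0.88), 2200002K05Rik (0.88), Clic1 (0.85), Marcksl1-ps4 (0.82) and H2-Aa (0.82). H2-DMa, H2-Eb1, H2-Aa and Cd74 serve class II presentation, and 5 of the 10 lie on chromosome 17, as do 7 of the 10 genes described here. The points of these correlations share groups, libraries and depth.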

How the data were processed

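Libraries were made from poly(A) RNA of colon epithelium (RNA integrity number above 4). The authors aligned reads to mm9 with HISAT2 and counted them with featureCounts; the deposited table holds raw counts per gene for 14 libraries, 37680 genes, 14001 of them without a count, and gives no version in the labels. Gene names and positions are those of GENCODE M1 (37310 IDs matched). Counts were tested with edgeR 4.0.16 (quasi-likelihood, TMM, R 4.3.3) in 1 model of all libraries, for the 15127 genes that reached 10 counts in 3 or more libraries, with Benjamini-Hochberg adjustment over all of them at 0.05, and the code was tested on simulated data. Normalized counts are counts scaled by TMM library size. Ratios within a library used a pseudocount of 0.5, were compared by exact permutation tests (scipy 1.17.1) and adjusted over 8 tests, since Psmb9 had no counts and the 12 planned became fewer. Alternatives were DESeq2 1.42.0, edgeR on the 2 groups compared, other normalizations and filters, the replicate number, name prefix or mitochondrial share as a term, and each library left out. The removal of the 3 libraries of highest mitochondrial share was added after the data were seen. Replicate numbers did not pair the libraries (2 of 19 same-number pairs had a correlation of deviations over 0.1). The highest, 0.42, was that of WT water replicate 4 and KO water replicate 4, whose names both begin with MP. The named genes are the 10 members, Smad4, a fixed list of pathway genes, others of the lists that were called, and the 10 genes most like the members. Of the fixed list, 1 gene is not reported here. The members and lists were chosen with earlier results of these data known, and some members are in lists the study drew from these libraries, so that their direction is not independent evidence.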

Additional observations from a re-analysis of the deposited data

Results flagged for a closer look

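In KO water, the log2 ratio of H2-K1 to H2-D1 was -0.51 in replicate 3 and 0.19 to 0.21 in the other 3 libraries, so that 1 library stood far from the rest of its group. Chance alone sets apart about 1 in 20 groups by this measure, and it was applied to 9 genes and 3 ratios in the 2 groups of 4 libraries.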

How the results depend on the processing

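For KO against WT after DSS, none of the 9 genes passed under any alternative, and 8 of the 9 stayed lower in the KO under all of them. Nlrc5 was the exception, at 0.084 with the name prefix as a term and between -0.25 and 0.084 with 1 library left out. WT DSS replicate 3 is the only library of its prefix, so that the prefix term sets it aside. The value with the prefix as a term is thus the same result as that without this replicate. For KO against WT on water, 1 gene passed, against 0 in edgeR on the 2 groups compared, 0 with the name prefix as a term, 0 with the mitochondrial share as a covariate, 2 with the replicate block, 3 without the 3 libraries of highest mitochondrial share, and 0 to 4 with 1 library left out. The share of all genes called moved as well, from 8.44% to 0.00686%, 13.3%, 0.608%, 19.7%, 15.9% and 0.0265% to 27.3% in the same order. With the prefix as a term B2m was at 0.0032 and H2-D1 at 0.082, and with 1 library left out H2-K1 ran from -0.047 to 0.33 and H2-D1 from -0.36 to 0.010.

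For DSS against water in WT, none of the 9 genes was lower, against 2 with upper quartile factors (Tapbp -0.0094, Tap2 -0.012), 3 with the prefix as a term (Tapbp -0.047, Tap2 -0.25, H2-D1 -0.25), 1 with the mitochondrial share as a covariate (H2-D1 -0.021), 2 without the 3 libraries of highest mitochondrial share (Tap2 -0.067, H2-D1 -0.12) and 0 to 3 with 1 library left out (Tapbp -0.14 to 0.13, Tap2 -0.15 to 0.21, H2-D1 -0.0026 to 0.37).

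For DSS against water in the KO, 3 genes were lower, against 1 with the mitochondrial share as a covariate (Tapbp 0.063, H2-K1 0.079), 0 without the 3 libraries of highest mitochondrial share (Tapbp 0.15, H2-K1 0.12, H2-D1 0.074), where 1 gene, Psmb8, passed, and 0 to 4 with 1 library left out, where 0 to 1 passed. The share of all genes called was 0.174% without those 3 libraries and 0.0199% to 0.0729% with 1 library left out. Tapbp was at 0.090 with the replicate block and 0.12 with the prefix as a term, where Tap2 was at -0.069, H2-D1 at -0.64 and Nlrc5 at 1.15. Within the KO, prefix and DSS cannot be told apart. Values with the prefix as a term therefore rest on the difference of D from other prefixes in WT libraries, also for the difference of responses. With 1 library left out Tap2 ran from -0.048 to 0.40, Tapbp from -0.20 to 0.14, H2-K1 from -0.36 to 0.12 and H2-D1 from -0.24 to 0.10. For the difference of responses, 5 genes were lower, against 3 with the prefix as a term, 2 without the 3 libraries and 2 to 6 with 1 library left out. With 1 library left out, the difference in the log2 ratio of Psmb8 to Psmb5 ran from -0.43 to 0.12 for KO against WT after DSS and from -0.29 to 0.28 for DSS in WT, and that of Psmb10 to Psmb7 from -0.33 to 0.17 for DSS in the KO. The cause of these changes was not tested. The replicate numbers do not pair the libraries, and under the replicate block no other call among the 9 genes changed.

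With 3 or 4 libraries a group, the SE of a log2 difference was 0.18 to 0.45 for the 9 genes, about the size of most differences. Psmb9 and Ifng had too few counts for any comparison.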
